A study of Arabidopsis thaliana with 24 samples.

Results

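The class III peroxidases of Arabidopsis thaliana were followed across 3 genotypes and 2 organs of 7-day-old seedlings. A list of 60 loci was used, all of them present among the 33602 loci of the counts, and 59 had at least 1 read count in the 22 libraries analysed here. The genotypes were 41-OX, which carries constitutive CLE41 (the promoter is not given), pxy, which is the pxy-5 allele of the receptor kinase gene PXY, and WT, which is Col-0. Roots and shoots of each genotype made 6 groups with 4 biological replicates each, sequenced as total RNA. No treatment is named, and whole organs were taken, so every value is a mean over many cell types. WT shoot replicate 2 and the root library labelled pxy replicate 2 were left out by the rule that chose the loci, which left 3 pxy roots and 3 WT shoots. The title names a search for genes behind the proliferation of vascular tissue. PXY is known as the receptor of dividing vascular cells, and CLE41 encodes its peptide ligand.

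Class III peroxidases are haem enzymes that plant cells secrete into the cell wall and vacuole. They use hydrogen peroxide to oxidise phenolic compounds, which cross-links lignin, suberin and wall proteins and stiffens the wall, and in another cycle they release reactive oxygen, which loosens it. NADPH oxidases at the plasma membrane supply the superoxide from which the peroxide comes, and laccases oxidise monolignols beside the peroxidases. The family is large, many of its genes lie in tandem, and roots are known to use more of its members than leaves do. Different members are known from root hairs, the Casparian strip of the endodermis, lignified stem tissue and the oxidative burst of defence.

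The family's sequences matter here for what a count per locus can tell apart. Coding sequences of the 60 loci had a median identity of 51.2% over 1770 pairs, and 11 runs of 2 or 3 neighbours lay within 10 kb of each other. AT1G05240 and AT1G05250, both root hair peroxidases, had identical coding sequences, and all 1443 windows of 50 bases in the annotated transcript of AT1G05250 also occurred in that of AT1G05240. The first 150 bases of coding exon 4 of this pair are shown because they hold 0 differences, with positions from the TAIR10.1 assembly of RefSeq.
AT1G05240 chr1:1522035-1522184, plus strand: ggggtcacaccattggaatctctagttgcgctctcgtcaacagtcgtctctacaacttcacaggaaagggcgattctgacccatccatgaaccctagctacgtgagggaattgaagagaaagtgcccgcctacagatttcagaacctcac
AT1G05250 chr1:1526187-1526336, minus strand: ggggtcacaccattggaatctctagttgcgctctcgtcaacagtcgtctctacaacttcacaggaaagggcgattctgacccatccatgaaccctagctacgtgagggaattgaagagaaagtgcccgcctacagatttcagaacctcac
Reads of such stretches cannot be assigned to either locus. The summed counts of the pair were 2651 and 2553 in 41-OX roots, 1795 and 1918 in pxy roots and 2677 and 2769 in WT roots, each pair with AT1G05240 first. A deposited line for reads without a unique position held 0 in every library, so how the submitters treated them cannot be seen, and both loci are reported as uncertain. The tandem pair AT2G38380 and AT2G38390 had 90.6% identical coding sequences, and only 23 windows of 50 bases were shared. The same part of coding exon 4 is shown with the 10 bases that differ in capitals, since the levels of these neighbours moved apart in roots.
AT2G38380 chr2:16077854-16078003, plus strand: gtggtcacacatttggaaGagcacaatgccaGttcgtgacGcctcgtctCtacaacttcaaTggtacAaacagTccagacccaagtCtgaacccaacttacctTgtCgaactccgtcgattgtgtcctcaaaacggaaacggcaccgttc
AT2G38390 chr2:16080921-16081070, plus strand: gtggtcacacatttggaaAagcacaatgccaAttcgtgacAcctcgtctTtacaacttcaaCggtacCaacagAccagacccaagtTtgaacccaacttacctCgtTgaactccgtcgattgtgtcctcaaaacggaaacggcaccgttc

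The 300 bases around each start, 250 before it and 50 after it, were searched for motifs on both strands. The root hair element, a sequence known from genes of root hair cells, was found in 2 of the 60 windows (3.33%) and in 0.876% of 26699 protein-coding windows of the same length. Of the 7 root hair peroxidases, 1 held it, the gene RHS18 (AT5G22410). The other window was that of AT3G01190. In 41-OX roots RHS18 fell and AT3G01190 rose, though the call of RHS18 was lost without some single replicates. In shoots both genes were higher in every 41-OX library than in any WT library. For this difference between organs their upstream sequences are shown, with the element in capitals.
RHS18 (AT5G22410) chr5:7426160-7426309, plus strand, bases -150 to -1: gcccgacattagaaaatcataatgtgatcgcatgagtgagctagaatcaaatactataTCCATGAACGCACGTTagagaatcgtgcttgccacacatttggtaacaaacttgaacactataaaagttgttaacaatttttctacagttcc
AT3G01190 chr3:68766-68915, minus strand, bases -250 to -101: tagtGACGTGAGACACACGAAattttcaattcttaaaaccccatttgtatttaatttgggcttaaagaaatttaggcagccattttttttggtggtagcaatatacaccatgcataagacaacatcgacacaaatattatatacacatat
The element of RHS18 lay at bases -92 to -77 and read along the gene, and that of AT3G01190 lay at bases -246 to -230 on the other strand. The G-box CACGTG was in 0 of the 60 windows and in 7.79% of all windows. The W-box core TTGAC was in 53.3% of the 60 windows and in 50.5% of all windows. A match is a description of the letters and does not show a bound site.

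The 22 libraries held 7033091 to 12226066 counts. Each level is given in CPM, the counts of a locus relative to the size of its library after TMM normalisation. CLE41 stood at 26.3 to 33.3 CPM in 41-OX roots and 8.25 to 10.15 CPM in WT roots, and at 27.7 to 29.7 CPM in 41-OX shoots and 15.5 to 21.95 CPM in WT shoots. PXY was counted in pxy, at 35.8 to 42.6 CPM in pxy shoots and 9.14 to 11.5 CPM in WT shoots, and counts per locus do not show which part of the transcript was read. WT shoot replicate 2 held only 167131 counts, and the library labelled pxy root replicate 2 carried markers of photosynthetic tissue at a summed 16477 CPM before TMM scaling, a level of shoots. Of the 11 root libraries used, 41-OX root replicate 4 had the highest sum of these markers, 2933 CPM against 123 to 650 CPM in the others. Root markers were present in every root library (root hair list, sums of 583 to 1138 CPM before TMM scaling; 0 of 8 markers at 0 in any group).

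The family took a larger share of the RNA in roots than in shoots. Its summed level was 5335 ± 245 CPM in 41-OX roots (SD, n = 4), 5532 ± 47.8 CPM in pxy roots (n = 3) and 5071 ± 155 CPM in WT roots (n = 4). In shoots the sums were 2642 ± 199 CPM in 41-OX (n = 4), 2023 ± 64.4 CPM in pxy (n = 4) and 1868 ± 213 CPM in WT (n = 3). The 41-OX shoots spanned 2424 to 2885 CPM, above the 1949 to 2097 CPM of pxy shoots and the 1623 to 2009.5 CPM of WT shoots. Per kilobase of exon, the scale on which genes can be compared, AT3G32980 (286 ± 14.0 CPM per kb) and AT4G30170 (267 ± 11.8 CPM per kb) were highest in WT roots, and their ranges overlapped. PRXR1 (AT4G21960), AT5G64100 and AT2G37130 followed at 235 ± 3.99, 227 ± 6.94 and 220 ± 1.86 CPM per kb, and neighbours among these 3 overlapped too. In shoots PRXR1 was highest, at 223 ± 8.55 CPM per kb in 41-OX, 292 ± 10.5 in pxy and 271 ± 3.01 in WT. It made up 12.5% of the family's summed level per kb in 41-OX shoots, 22.1% in pxy shoots and 22.2% in WT shoots. The next in WT shoots were AT3G32980 (124 ± 28.7 CPM per kb) and AT1G71695 (117 ± 10.6), which overlapped. In 41-OX shoots AT3G32980 (184 ± 24.1 CPM per kb) overlapped PRXR1, and in pxy and WT shoots it did not. The 10 highest genes held 59.6% of the family's level per kb in 41-OX roots, 56.1% in pxy roots and 55.1% in WT roots, and 66.2% in 41-OX shoots, 76.3% in pxy shoots and 74.8% in WT shoots.

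**Figure D1:**
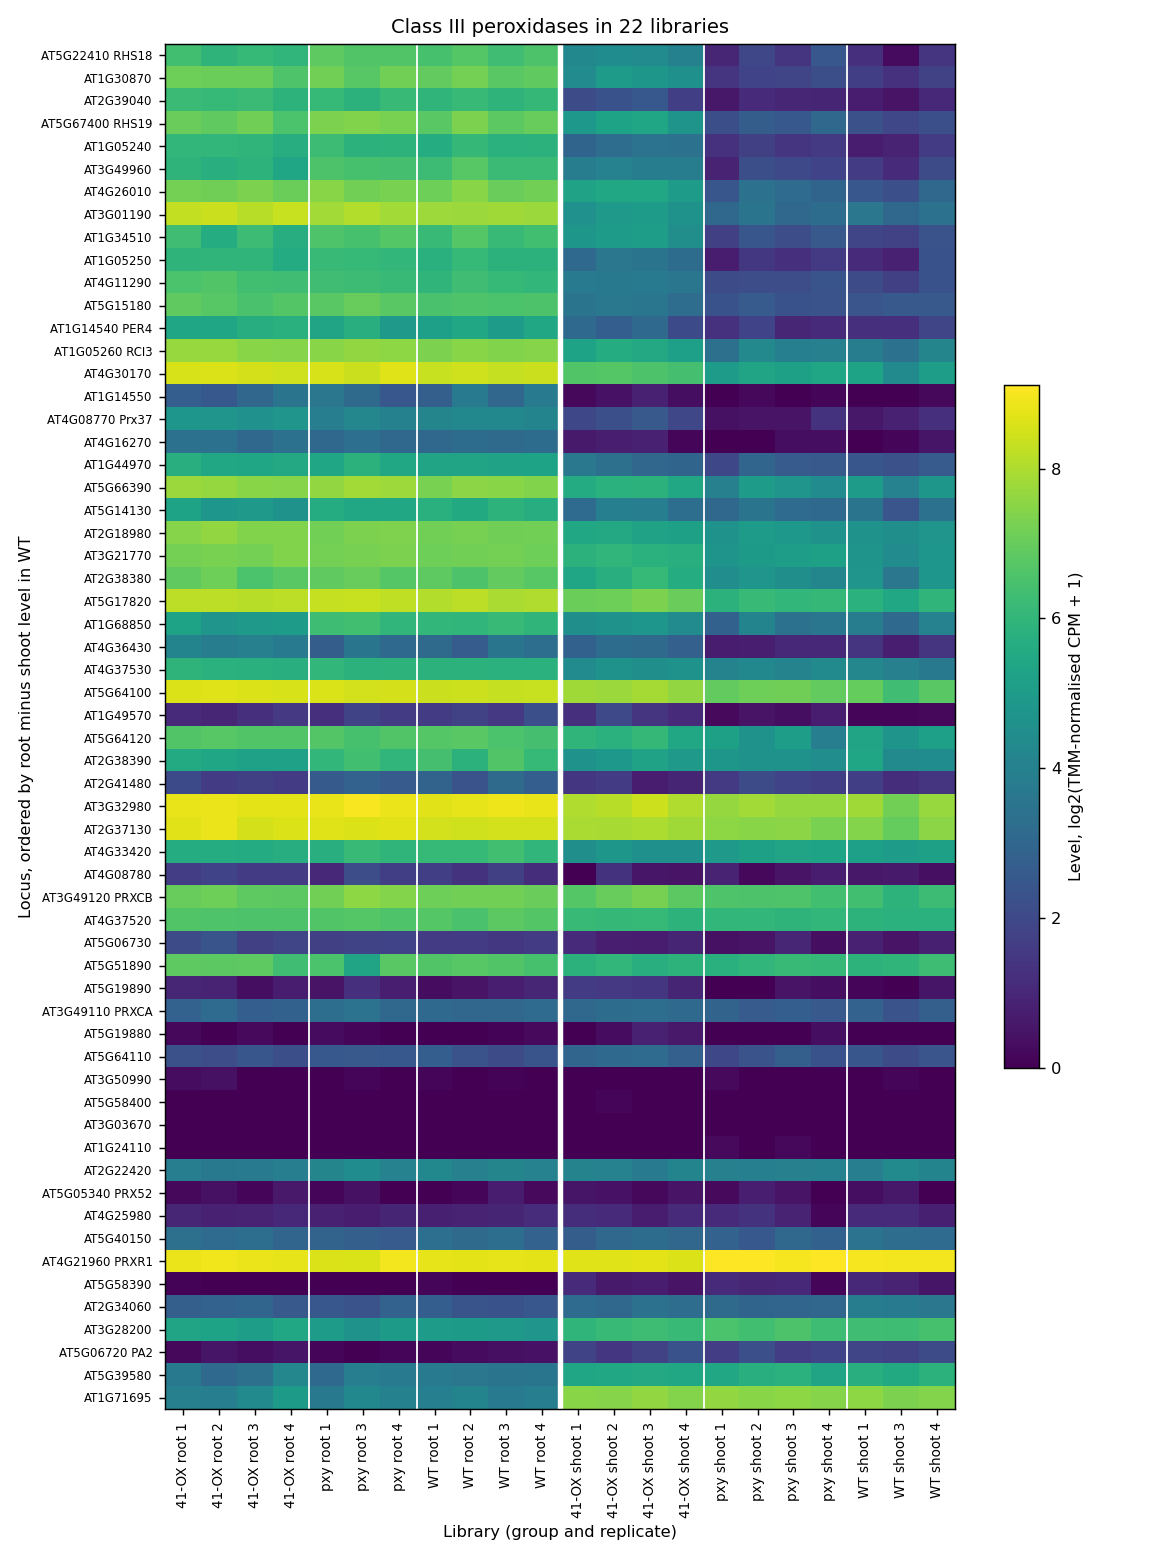
Level of each of the 60 loci (rows, ordered by the root minus shoot level in WT) in each of the 22 libraries (columns), as log2 of TMM-normalised CPM plus 1. Most rows are brighter in the 11 root libraries on the left, a few at the bottom such as AT1G71695 are brighter in shoots, and in the upper rows the 4 libraries of 41-OX shoots lie between roots and the other shoots.

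Most members were root genes in WT. In the fit of all 22 libraries 53 of the 60 loci passed the low-count filter, and 48 of these differed between WT roots and WT shoots, 42 higher in roots and 6 lower, where 80.3% of all genes tested differed, 39.5% higher and 40.7% lower. Of the members, 38 were at least 2-fold and 17 at least 16-fold higher in roots, and 5 were at least 2-fold and 0 at least 16-fold higher in shoots. The shares of all genes at these folds in WT were not counted. The median log2 fold change of root over shoot was 2.39 for the members tested and -0.01 for all genes. The same contrast called 48 members in pxy (42 higher and 6 lower; background 79.9%, with 39.6% higher and 40.2% lower) and 46 in 41-OX (39 higher and 7 lower; background 78.7%, with 39.1% higher and 39.6% lower), where the median was 1.12. The other 7 loci did not reach the filter: AT3G03670 had no count, PER36 (AT3G50990), known from the seed coat, did not exceed 0.332 CPM, PRX52 (AT5G05340) did not exceed 0.685 CPM, and AT1G24110, AT5G19880, AT5G58390 and AT5G58400 did not exceed 1.14 CPM.

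The root hair peroxidases had some of the steepest root preference. RHS18 stood at 86.050, 104, 79.6 and 94.2 CPM in WT roots and 1.43, 0.199 and 1.61 CPM in WT shoots (log2 fold change 6.51 ± 0.32 SE, adjusted p = 3.41e-14). AT1G30870 stood at 119, 147, 108 and 119 CPM in WT roots and 2.21, 1.49 and 2.48 CPM in WT shoots (log2 fold change 5.93 ± 0.24 SE, adjusted p = 8.70e-16). All 7 genes of the list were called higher in roots, where 39.5% of all genes tested were. Root and shoot libraries did not overlap for RHS18 and AT1G30870. AT2G39040 had a log2 fold change as large, 6.59. AT1G14550, a gene of the tandem pair with PER4 that is known from defence, held 430 counts in WT roots and 1 count in WT shoots, a ratio of 224 with an exact 95% interval of 39.96 to 8861 for counting error only. The Casparian strip peroxidases RCI3, AT1G44970, AT4G11290 and PRX72 (AT5G66390) were all higher in roots, with log2 fold changes of 3.70, 3.12, 4.46 and 2.80. AT4G11290 is also known as a target of UPBEAT1, the transcription factor that represses peroxidases where root cells leave the dividing zone, and the other targets AT4G16270 (5.49) and AT5G17820 (2.33) were higher in roots as well.

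Genes higher in shoots were few. AT1G71695, known from lignified stem tissue, stood at 14.4, 16.5, 12.6 and 13.7 CPM in WT roots and 190.2, 159 and 171 CPM in WT shoots (log2 fold change -3.60 ± 0.18 SE, adjusted p = 9.13e-14). AT5G39580 stood at 12.5, 11.4, 10.5 and 10.6 CPM in WT roots and 51.4, 45.4 and 57.1 CPM in WT shoots (log2 fold change -2.19 ± 0.19 SE, adjusted p = 3.44e-10). Root and shoot libraries of these genes did not overlap. PA2 (AT5G06720) was low in both organs, with a mean of 0.231 ± 0.120 CPM in WT roots (n = 4) and 2.86 ± 0.452 CPM in WT shoots (n = 3) and a log2 fold change of -3.53. AT3G28200 (-1.46), AT2G34060 (-1.45) and PRXR1 (-0.20) were also lower in roots.

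In 41-OX shoots most members were higher than in WT shoots. Of the 60 loci 48 passed the filter in shoots, and 37 of these changed by edgeR's quasi-likelihood test (Benjamini-Hochberg adjusted p below 0.05 over all genes tested), 34 higher and 3 lower, where 30.9% of all genes tested changed, 15.1% higher and 15.8% lower. The median log2 fold change was 1.03 for the members tested and 0.00 for all genes. The filter let 5 members pass only through the 41-OX shoots (AT1G49570, AT2G39040, Prx37, AT4G36430 and AT5G19890), which therefore had to differ. Of the other 43 members 29 were higher and 3 lower. Without a filter, 35 members were higher and 4 lower. In RNA of whole shoots, more cells of a type and more RNA per cell cannot be told apart.

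All 7 root hair peroxidases rose, with a median log2 fold change of 2.94, where 15.1% of all genes tested rose. RHS18 stood at 18.1, 20.6, 20.1 and 14.9 CPM in 41-OX shoots, 0.977, 2.88, 1.63 and 4.51 CPM in pxy shoots and 1.43, 0.199 and 1.61 CPM in WT shoots (log2 fold change 4.21 ± 0.41 SE, adjusted p = 1.38e-06 against WT). Every 41-OX shoot was above every other shoot for this gene, and its lowest library was WT shoot replicate 3. AT1G30870 stood at 19.956, 32.1, 27.4 and 22.9 CPM in 41-OX shoots, 1.63, 2.603, 2.72 and 3.61 CPM in pxy shoots and 2.21, 1.49 and 2.48 CPM in WT shoots (log2 fold change 3.68 ± 0.23 SE, adjusted p = 2.92e-10). RHS19 (AT5G67400) stood at 27.966, 38.040, 39.9 and 24.954 CPM in 41-OX shoots, 3.58, 5.48, 4.76 and 7.22 CPM in pxy shoots and 3.77, 2.88 and 3.65 CPM in WT shoots (log2 fold change 3.27 ± 0.22 SE, adjusted p = 1.19e-09). For these too, all 4 libraries of 41-OX shoots lay above the other 7. AT4G26010 (2.94) and AT3G49960 (2.72) rose as well. AT1G30870, RHS19 and AT4G26010 each overlap another gene on the opposite strand, and the strand setting of the counting is not given. The uncertain pair AT1G05240 and AT1G05250 had log2 fold changes of 2.93 and 2.36. Even so, the group's level in 41-OX shoots stayed below that of roots: its sum was 126 to 169 CPM in 41-OX shoots, 13.5 to 28.4 CPM in pxy shoots and 11.1 to 24.4 CPM in WT shoots, and 613 to 827 CPM in WT roots.

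**Figure D2:**
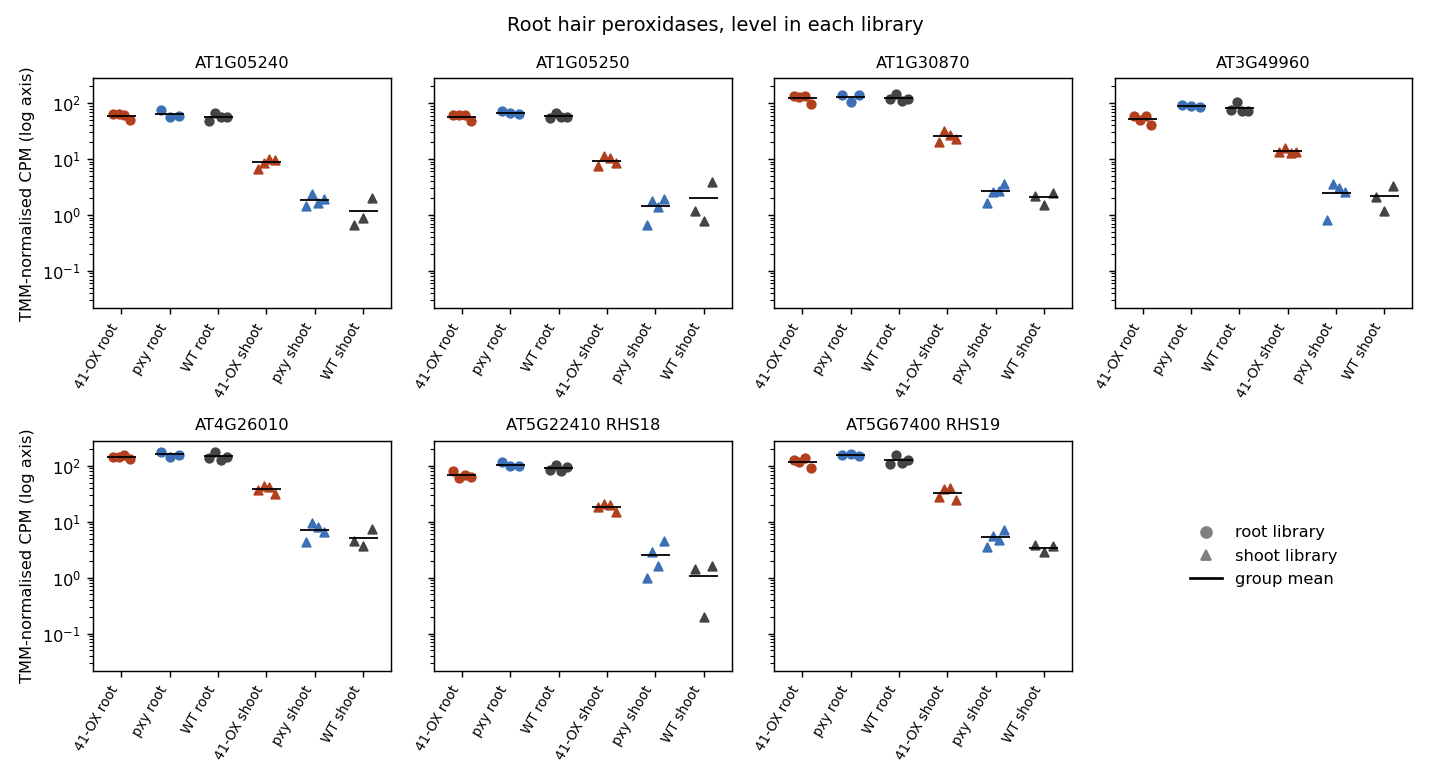
TMM-normalised CPM of the 7 root hair peroxidases in each library on a log axis, with circles for roots, triangles for shoots and a line at each group's mean. In every panel the 4 libraries of 41-OX shoots lie above the pxy and WT shoots and below all roots.

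Members of other root roles rose too. The Casparian strip peroxidases, which polymerise the lignin of the endodermal barrier, rose in 4 of 4 cases, where 15.1% of all genes tested rose. RCI3 (AT1G05260) stood at 38.2, 49.1, 43.8 and 34.5 CPM in 41-OX shoots and 13.4, 9.44 and 16.7 CPM in WT shoots (log2 fold change 1.69 ± 0.20 SE, adjusted p = 8.99e-06). AT4G11290 stood at 12.5, 11.9, 12.3 and 10.975 CPM in 41-OX shoots and 3.25, 2.28 and 3.95 CPM in WT shoots (log2 fold change 1.95 ± 0.19 SE, adjusted p = 7.78e-08). The groups did not overlap for either gene. AT1G44970 and PRX72 had log2 fold changes of 0.99 and 1.06. Of the UPBEAT1 targets, AT5G17820 stood at 134, 134, 157 and 129 CPM in 41-OX shoots and 56.036, 41.8 and 61.4 CPM in WT shoots (log2 fold change 1.41 ± 0.11 SE, adjusted p = 9.08e-09), with no overlap, and AT4G16270 was not tested in shoots. AT5G64100, known with AT5G39580 from root hair growth in the cold, rose (1.09), while AT5G39580 did not pass (-0.28, adjusted p = 0.0563).

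Several risen members have no role in the lists. AT1G34510 had 26.982, 31.4, 32.950 and 21.7 CPM in 41-OX shoots and 2.73, 2.38 and 4.09 CPM in WT shoots (log2 fold change 3.24 ± 0.22 SE, adjusted p = 7.66e-10), and no library of one group reached the other. AT1G49570 was low, with 55 counts in the 41-OX shoots and 3 in the WT shoots, a ratio of 15.1 with an exact 95% interval of 4.91 to 75.5 for counting error only. AT5G19890 (3.21 ± 0.67 SE) and AT2G39040 (2.40 ± 0.38 SE) also came from low levels in WT shoots, and all 3 passed the filter only through the 41-OX shoots. Of the members highest per kb, AT4G30170 had a log2 fold change of 1.69, AT5G64100 of 1.09 and AT3G32980 of 0.58. AT2G38380, of the tandem pair shown above, rose (log2 fold change 1.34 ± 0.28 SE, adjusted p = 0.00494), and its neighbour AT2G38390 did not pass (log2 fold change 0.15 ± 0.24 SE, adjusted p = 0.686).

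The peroxidases known from lignin of stem and xylem were mixed. Of 9 tested, 3 rose, 1 fell and 5 did not pass, and their median log2 fold change was 0.07, against 0.00 for all genes. Of all genes tested in shoots, 15.1% were higher and 15.8% lower in 41-OX. Of the 3, AT4G36430 passed the filter only through the 41-OX shoots and so had to differ. It had 6.18, 8.21, 7.93 and 5.88 CPM in 41-OX shoots and 1.56, 0.695 and 1.61 CPM in WT shoots, given as a description. PER4 (AT1G14540; 1.71) and PRX72 rose, and AT4G33420 fell. AT4G33420 stood at 22.2, 27.6, 22.8 and 22.6 CPM in 41-OX shoots, 28.7, 35.2, 38.7 and 38.022 CPM in pxy shoots and 34.2, 31.3 and 35.1 CPM in WT shoots (log2 fold change -0.47 ± 0.11 SE, adjusted p = 0.00247), every 41-OX shoot below the others. PRX71 (AT5G64120; 0.80, adjusted p = 0.0646), PRX25 (AT2G41480; -0.32, adjusted p = 0.561), AT5G51890 (-0.15, adjusted p = 0.270), AT2G22420 (-0.14, adjusted p = 0.474) and AT1G71695 (0.07, adjusted p = 0.564) did not pass. Of the xylem markers, 2 of 7 were higher and 0 lower (NAC101, a vessel regulator, 0.83; XCP1, a xylem protease, 0.39).

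Of the peroxidases known from defence and the oxidative burst, 9 were tested in shoots, 6 rose, 0 fell and 3 did not pass. The shares of all genes tested were 15.1% higher and 15.8% lower. Of the 6, Prx37 passed the filter only through the 41-OX shoots and so had to differ. PRXCB (AT3G49120), which makes much of the apoplastic burst together with PRXCA (AT3G49110), stood at 104, 125, 149.1 and 113 CPM in 41-OX shoots and 79.959, 58.3 and 74.4 CPM in WT shoots (log2 fold change 0.81 ± 0.12 SE, adjusted p = 6.76e-05). The groups did not overlap. PRXCA rose by less (log2 fold change 0.60 ± 0.19 SE, adjusted p = 0.0182), and its adjusted p was 0.139 without WT shoot replicate 3. Prx37 (AT4G08770; 2.05), AT2G37130 (0.62), AT3G32980 and PER4 made up the rest of the 6. PA2 (log2 fold change -0.06, adjusted p = 0.900), PRX71 and AT5G39580 did not pass. AT1G14550, AT4G08780, AT5G06730 and AT5G19880 were too low in shoots to be tested.

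PRXR1, the most abundant peroxidase of shoots, was lower in 41-OX. It stood at 409, 406, 428 and 390.2 CPM in 41-OX shoots, 552, 538, 507 and 541 CPM in pxy shoots and 502, 492 and 492 CPM in WT shoots (log2 fold change -0.27 ± 0.08 SE, adjusted p = 0.0103), with every 41-OX shoot below the rest. AT2G34060 was lower in both genotypes: it stood at 8.01, 7.28, 9.64 and 8.49 CPM in 41-OX shoots, 7.82, 6.58, 6.798 and 7.09 CPM in pxy shoots and 13.1, 12.9 and 11.3 CPM in WT shoots (log2 fold change -0.57 ± 0.15 SE, adjusted p = 0.00441 for 41-OX against WT). Both fold changes of this gene rest on the same 3 WT shoots. Among the smaller rises, that of AT4G37520 (0.24) had an adjusted p of 0.0521 to 0.0770 without WT shoot replicate 3 or 4 or 41-OX shoot replicate 1 or 3.

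**Figure D3:**
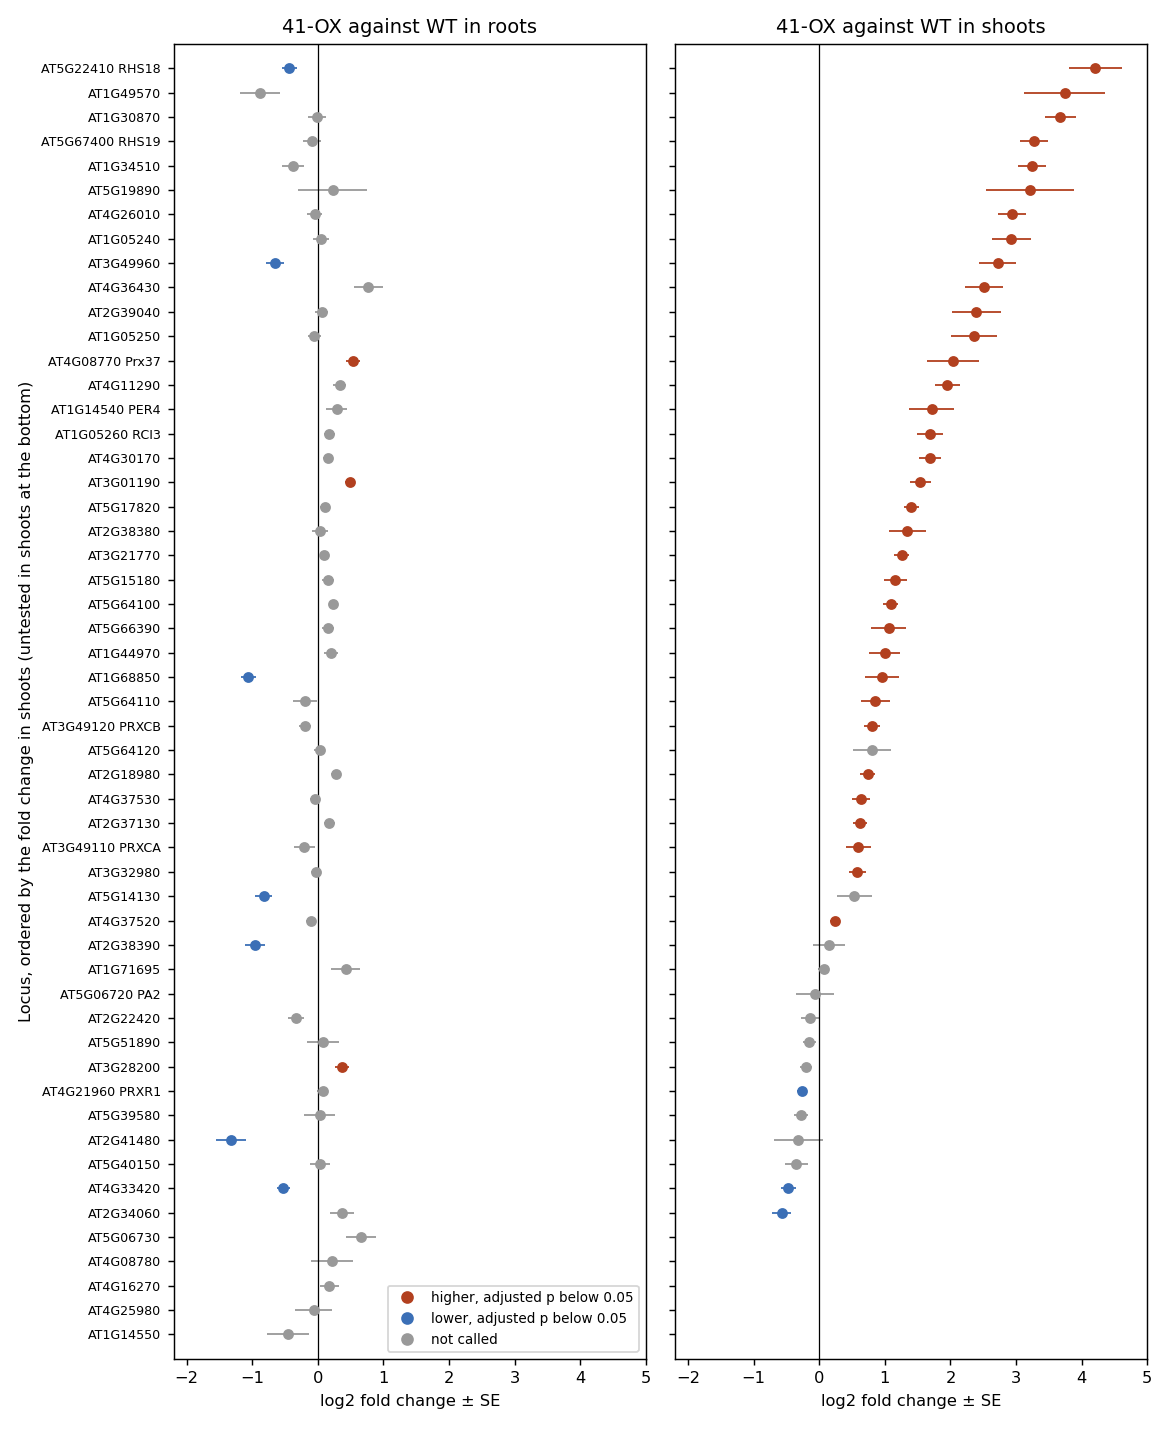
Log2 fold change of 41-OX against WT with its SE for each tested locus, in roots (left) and shoots (right), ordered by the value in shoots; red and blue mark adjusted p below 0.05. In shoots 34 loci are higher and 3 lower, while in roots 3 are higher and 7 lower and most lie close to 0.

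Counts in 41-OX shoots were also taken by organ preference. Organ preference was taken from pxy. The pxy levels do not enter the fold change of 41-OX over WT, but the pxy shoots took part in the filter, the scaling and the estimate of spread of the shoot fit. Of 38 members higher in pxy roots than in pxy shoots and tested in shoots, 33 (86.8%) were higher and 1 lower in 41-OX shoots. Of 6 members higher in pxy shoots 0 were higher and 2 lower, near the shares of all genes. Among all 8589 genes higher in pxy shoots, 5.82% were higher and 29.5% lower in 41-OX shoots. Over all genes the same held in part: of 7456 genes higher in pxy roots 29.4% were higher in 41-OX shoots, of 1705 genes at least 4-fold higher 66.6%, and of 423 genes at least 16-fold higher 94.6%. The members in these classes numbered 27 with 26 higher, and 14 with 14 higher. Without genes that passed the shoot filter only through the 41-OX shoots, 28 of 33 members higher in pxy roots were higher in 41-OX shoots, against 26.7% of 6987 such genes. With 41-OX and WT shoots fitted without pxy, chosen after the data were seen, 34 of the 38 members were higher and 1 lower, against 28.2% higher of 7407 genes. In the classes of the shoot fit with pxy the medians of the log2 fold change in 41-OX shoots were 1.95 for the members and 0.94 for all genes at least 4-fold higher in pxy roots, and 2.56 and 2.13 at least 16-fold higher.

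Markers of root cell types rose in the same libraries, where 15.1% of all genes tested were higher and 15.8% lower than in WT shoots. The root hair list of 8 genes summed to 127 to 168 CPM before TMM scaling in 41-OX shoots, 14.3 to 29.98 CPM in pxy shoots and 14.7 to 19.8 CPM in WT shoots, and 8 of 8 were higher in 41-OX shoots than in WT shoots (EXPA7, a root hair expansin, 4.37). The endodermis list summed to 84.4 to 122 CPM in 41-OX shoots, 20.8 to 44.2 CPM in pxy shoots and 28.4 to 45.0 CPM in WT shoots, and 6 of 6 tested were higher (CASP4, 1.58). Photosynthetic markers were lower than in WT shoots in 4 of 9 cases. Their sums were 13510 to 15217 CPM in 41-OX shoots, 13869 to 18403 CPM in pxy shoots and 15189 to 16039 CPM in WT shoots. The ranges of 41-OX and pxy shoots overlapped. None of these markers was at 0 in any group. The part of these cell types in the result was not tested. The gain in 41-OX shoots over WT shoots was set against the level in 41-OX roots for every member with at least 10 CPM there, whether called or not. For these 40 members it was -80.4% to 42.6% of the root level, with a median of 13.9% and 6 members below 0. For the root hair markers it was 7.89% to 33.1% (median 17.8%), for the endodermis markers 8.69% to 16.3% (median 11.3%), and for 5 of the 7 xylem markers -4.89% to 7.60% (median -1.53%). NAC101 and VND7, the other xylem markers, were below 10 CPM in 41-OX roots. AT5G39580 was lowest at -80.4% ± 16.5, AT2G39040 stood at 4.15% ± 1.53, RHS18 at 25.5% ± 3.78 and PRXCB at 42.6% ± 16.2 (SD, n = 4).

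**Figure D4:**
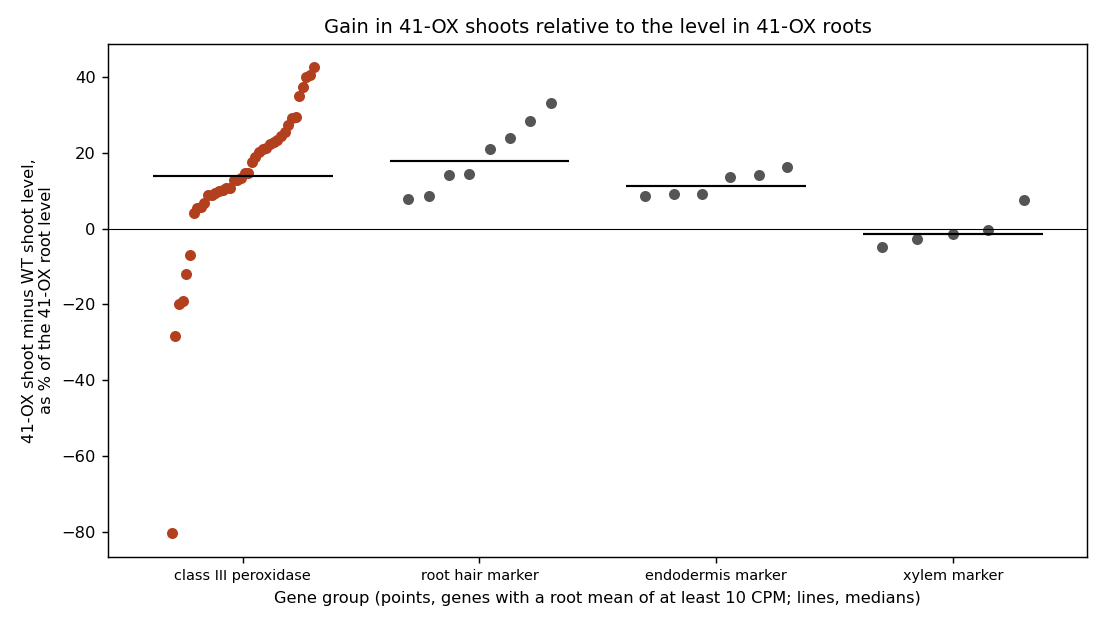
Gain of single genes in 41-OX shoots over WT shoots as a percentage of their level in 41-OX roots, for the 40 peroxidases with at least 10 CPM in 41-OX roots and for markers of 3 cell types, with lines at the medians. The peroxidases cover -80.4% to 42.6% with 6 below 0, the root hair and endodermis markers lie between 7.89% and 33.1%, and 4 of the 5 xylem markers lie below 0.

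In 41-OX roots fewer members changed, and in both directions. Of 52 loci tested in roots 10 changed, 3 higher and 7 lower, where 6.56% of all genes tested changed, 1.92% higher and 4.65% lower. The median log2 fold change was 0.04 for the members tested and 0.01 for all genes. With the 2 left-out libraries put back as labelled, 0 of the 10 passed, and without 41-OX root replicate 4 alone 11 members passed, 5 higher and 6 lower. The largest fall was that of PRX25 (AT2G41480), known from stem lignin, at 3.09, 2.10, 2.28 and 2.09 CPM in 41-OX roots, 4.98, 6.28 and 5.20 CPM in pxy roots and 6.44, 3.98, 7.88 and 5.56 CPM in WT roots (log2 fold change -1.33 ± 0.23 SE, adjusted p = 0.00253). AT1G68850 stood at 37.7, 26.1, 29.7 and 31.5 CPM in 41-OX roots, 76.037, 80.8 and 63.1 CPM in pxy roots and 63.9, 63.5, 69.5 and 61.1 CPM in WT roots (log2 fold change -1.06 ± 0.11 SE, adjusted p = 7.98e-05). AT5G14130 stood at 38.029, 26.6, 29.6 and 23.9 CPM in 41-OX roots, 49.2, 42.038 and 43.5 CPM in pxy roots and 54.2, 45.2, 57.6 and 50.6 CPM in WT roots (log2 fold change -0.83 ± 0.13 SE, adjusted p = 0.00167). For all 3 genes every 41-OX root was below every pxy and WT root. AT5G14130 overlaps another gene on the opposite strand, and so does AT4G33420, another stem lignin peroxidase, which was lower in roots as in shoots (log2 fold change -0.53 ± 0.10 SE, adjusted p = 0.00577). The same holds for AT1G30870, AT4G26010, RHS19, AT4G08780, AT4G16270, AT4G25980, AT5G40150 and AT5G51890. Whether counting used the strand is not given in the sources used here.

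The tandem neighbours AT2G38380 and AT2G38390 parted in roots. AT2G38390 stood at 46.6, 41.1, 36.4 and 36.1 CPM in 41-OX roots, 64.8, 80.8 and 63.2 CPM in pxy roots and 85.7, 56.7, 97.3 and 67.8 CPM in WT roots (log2 fold change -0.96 ± 0.16 SE, adjusted p = 0.00201). AT2G38380 stood at 118, 135, 91.3 and 109.6 CPM in 41-OX roots, 116, 125 and 105 CPM in pxy roots and 114, 93.9, 122 and 107 CPM in WT roots (log2 fold change 0.03 ± 0.12 SE, adjusted p = 0.921). The 41-OX roots lay below all others for the first gene and among them for the second. The difference between the 2 fold changes was not tested.

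Of the root hair peroxidases, which rose together in 41-OX shoots, 2 of 7 fell in 41-OX roots and 5 did not pass. In these roots 4.65% of all genes tested were lower and 1.92% higher. RHS18 stood at 81.4, 59.6, 68.1 and 63.2 CPM in 41-OX roots, 116, 99.4 and 99.6 CPM in pxy roots and 86.050, 104, 79.6 and 94.2 CPM in WT roots (log2 fold change -0.44 ± 0.11 SE, adjusted p = 0.0325), and 41-OX root replicate 1 overlapped the WT roots. AT3G49960 stood at 59.3, 50.9, 58.3 and 40.4 CPM in 41-OX roots, 93.8, 87.7 and 83.973 CPM in pxy roots and 74.7, 105, 73.6 and 72.4 CPM in WT roots (log2 fold change -0.66 ± 0.14 SE, adjusted p = 0.0122), with no overlap. The call of RHS18 was lost without any 1 of WT root replicate 1, 2 or 4 or 41-OX root replicate 2, 3 or 4, with adjusted p up to 0.108, and 0 of the 8 root hair markers was called in 41-OX roots. RHS19 (-0.10), AT1G30870 (-0.01), AT4G26010 (-0.05), AT1G05240 (0.05) and AT1G05250 (-0.05) did not pass (adjusted p = 0.774, 0.973, 0.865, 0.885 and 0.838).

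Higher in 41-OX roots were AT3G01190, Prx37 and AT3G28200. AT3G01190 stood at 306, 328, 281 and 323 CPM in 41-OX roots, 231, 263 and 227 CPM in pxy roots and 218, 215, 226 and 212 CPM in WT roots (log2 fold change 0.49 ± 0.08 SE, adjusted p = 0.00131). Prx37, which is known to restrict growth when overexpressed, stood at 26.3, 25.7, 23.4 and 25.971 CPM in 41-OX roots, 13.8, 17.8 and 14.9 CPM in pxy roots and 16.5, 17.995, 18.3 and 16.2 CPM in WT roots (log2 fold change 0.53 ± 0.10 SE, adjusted p = 0.00571). Both genes were higher in all 4 libraries of 41-OX roots than in any other root. Prx37 shares 105 windows of 50 bases with its neighbour AT4G08780, which did not pass (log2 fold change 0.21 ± 0.32 SE, adjusted p = 0.789). AT3G28200, a member higher in shoots, stood at 38.8, 38.015, 33.9 and 42.9 CPM in 41-OX roots and 31.9, 30.4, 28.4 and 26.1 CPM in WT roots (log2 fold change 0.37 ± 0.10 SE, adjusted p = 0.0491). Its call was lost without any 1 WT root or any of 41-OX root replicates 1, 2 and 4, with adjusted p up to 0.156. The 4 Casparian strip peroxidases and the 3 UPBEAT1 targets did not pass in roots, at log2 fold changes of 0.17 for RCI3, 0.33 for AT4G11290 and 0.10 for AT5G17820. Of the members higher in shoots, AT1G71695 and AT5G39580 stood highest in 41-OX root replicate 4, the root library with the most photosynthetic markers: AT1G71695 had 14.6, 14.035, 19.1 and 30.6 CPM and AT5G39580 11.990, 7.63, 9.29 and 17.6 CPM in the 41-OX roots. The part of shoot tissue in this was not tested.

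**Figure D5:**
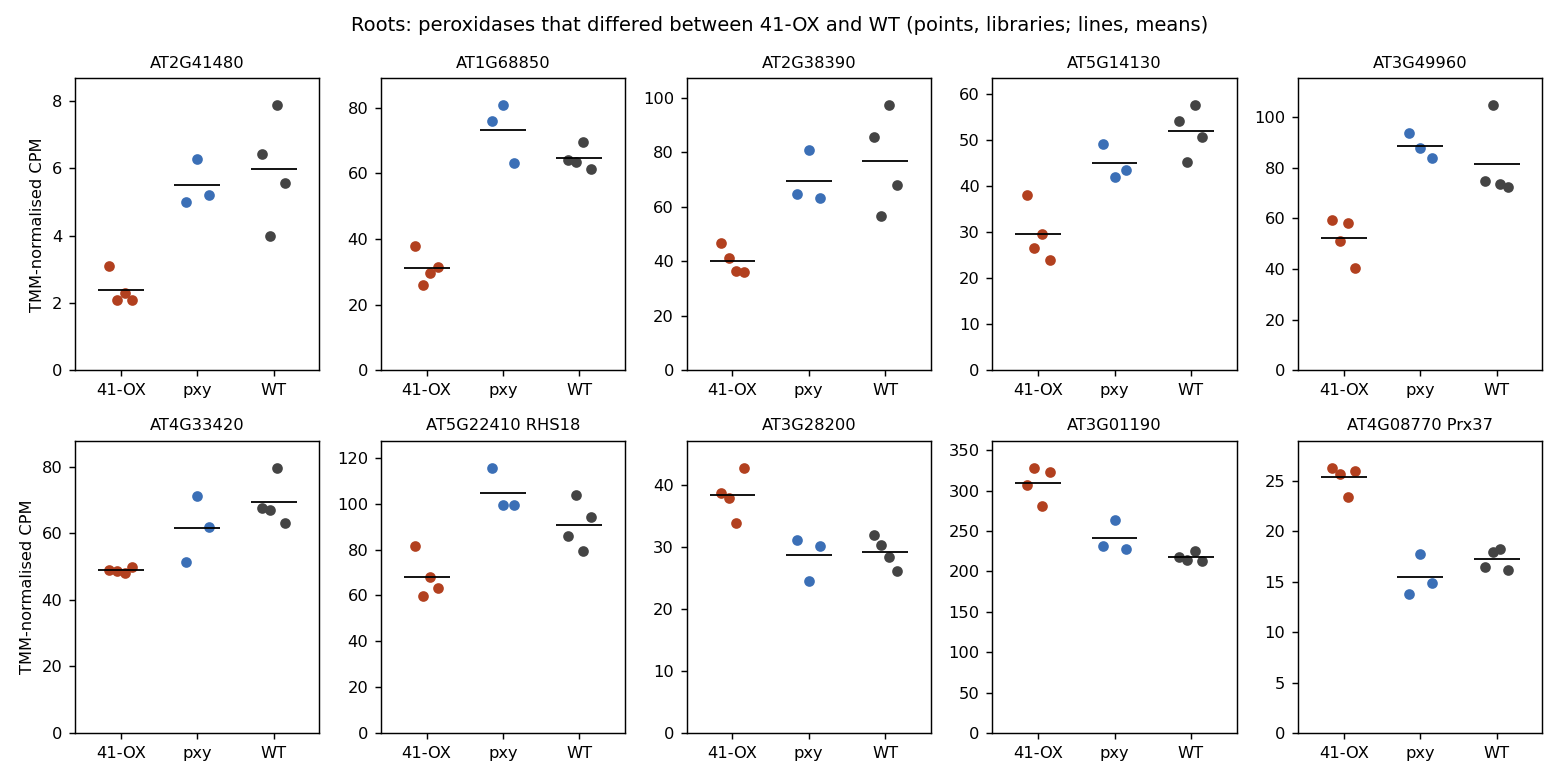
TMM-normalised CPM of the 10 peroxidases that differed between 41-OX and WT roots, in each root library, with a line at each group's mean and axes that start at 0. In reading order the first 7 fall in 41-OX roots and the last 3 rise, and pxy roots overlap WT roots in all panels but that of AT3G01190.

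Against pxy the 41-OX libraries gave similar counts. In roots 11 members changed, 3 higher and 8 lower (background 9.77%, with 3.10% higher and 6.67% lower), and in shoots 38 changed, 34 higher and 4 lower (background 29.2%, with 14.5% higher and 14.7% lower). These comparisons share their 41-OX libraries with those against WT and are no independent repeat. In roots, PRXCB (log2 fold change -0.48 ± 0.10 SE, adjusted p = 0.00838) and AT2G22420 (log2 fold change -0.45 ± 0.13 SE, adjusted p = 0.0404) were lower in 41-OX than in pxy and did not pass against WT (-0.20 and -0.34). The call of AT2G22420 was lost without pxy root replicate 1 or 3 or 41-OX root replicate 1, 2 or 3, with adjusted p up to 0.118.

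In pxy the family differed little from WT. In roots 0 of 52 members passed, by edgeR and by DESeq2, where by edgeR 0.0394% of all genes tested did (0.00985% higher and 0.0296% lower). An unadjusted p under 0.05 was found for 9 members, and the share of all genes at that threshold was not counted. Of the 9, 8 were higher and AT5G40150 was lower. The largest of the 8, PRX72, had 197, 227 and 219 CPM in pxy roots and 156, 183, 178 and 166 CPM in WT roots (log2 fold change 0.33 ± 0.10 SE, adjusted p = 0.417), with no overlap. AT5G51890, a stem lignin peroxidase, had 91.967, 39.1 and 109 CPM in pxy roots and 99.1, 105, 98.6 and 86.9 CPM in WT roots, so pxy root replicate 3 stood apart. In shoots 1 of 48 members passed, AT2G34060, which was lower in pxy (log2 fold change -0.82 ± 0.15 SE, adjusted p = 0.00491), where 1.70% of all genes tested passed (0.436% higher and 1.26% lower). The levels of RHS18 in pxy shoots (0.977, 2.88, 1.63 and 4.51 CPM) overlapped those of WT shoots.

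The effect of 41-OX differed between organs for 37 of 53 members, where 16.0% of all genes tested differed (6.19% higher in roots and 9.78% lower). In 34 it was lower in roots than in shoots and in 3 it was higher. Among the 34, AT5G19890 passed the filter of the 22 libraries only through the 41-OX shoots and so had to differ. With the 2 left-out libraries put back, 10 members passed. The difference was -4.62 ± 0.40 (log2, SE) for RHS18, -3.66 ± 0.30 for AT1G30870 and -3.34 ± 0.28 for RHS19. PRXR1 (0.37 ± 0.10), AT3G28200 (0.60 ± 0.14) and AT2G34060 (0.97 ± 0.22) went the other way. The effect of pxy differed between organs for 0 of 53 members by edgeR and by DESeq2. By edgeR 0.00935% of all genes tested passed at an adjusted p under 0.05 (0.00467% higher and 0.00467% lower). At an unadjusted p under 0.05 there were 3 members, and the share of all genes at that threshold was not counted.

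Genes that work beside the peroxidases were counted from lists chosen with earlier results known. Of all genes tested, 15.1% were higher and 15.8% lower in 41-OX shoots, and 1.92% higher and 4.65% lower in 41-OX roots. Of 6 NADPH oxidase genes tested in 41-OX shoots 5 were higher and 1 lower. RHD2, the oxidase of root hairs, was higher (log2 fold change 2.79 ± 0.25 SE, adjusted p = 2.06e-08), AT4G25090 too (2.07), and RBOHD, the oxidase of the defence burst, was the 1 lower (log2 fold change -0.82 ± 0.16 SE, adjusted p = 5.95e-04) and is named for that after its value was seen. Of 13 laccase genes 5 were higher, 0 lower and 8 did not pass, with LAC1 (2.80), LAC8 (1.87) and AT5G01050 (1.41) the largest. Of 6 regulators of peroxidase genes 4 were higher and 1 lower. RHD2 is also on the root hair marker list, and the regulator MYB36 on the endodermis list. The root hair regulators RSL2 (3.35), RSL4 (3.19) and RHD6 (1.85) rose. The regulators besides these and MYB36 were UPB1, the gene of UPBEAT1, and AT5G47390, and 1 of them was the lower. Their 41-OX effect in roots minus in shoots was -0.37 ± 0.29 SE for UPB1 (adjusted p = 0.428) and 0.61 ± 0.11 SE for AT5G47390 (adjusted p = 5.28e-04). Of 6 class I ascorbate peroxidases, which remove peroxide inside the cell and belong to another class, 1 was lower (APX6, -0.22) and 5 did not pass. In 41-OX roots 4 of 16 laccases fell and 0 rose, with LAC5 (-1.18), LAC13 (-0.78) and LAC7 (-0.65) the largest. There 1 of 8 NADPH oxidase genes fell (AT1G19230, -0.38), 1 of 6 ascorbate peroxidases rose (APX3, 0.26) and 0 of 6 regulators passed.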

How the data were processed

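Total RNA of roots and shoots was sequenced in 24 libraries, with 2 technical replicates per sample in the design text and 7033091 to 12226066 counts in the 22 libraries used. The authors deposited raw HTSeq read counts per locus. CASAVA, TopHat2, HTSeq and TAIR10 are named per the submitters' processing notes; versions, overlap mode, strand setting and the pooling of technical replicates are not given in the sources used here. The 5 summary lines of the counts stayed out of library sizes. Reads assigned to no feature made up 1.82% to 3.41% and ambiguous reads 1.80% to 2.61%.

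Roots and shoots (11 libraries each) were fitted apart with edgeR 4.0.16 (R 4.3.3; filterByExpr with a minimum count of 10 and total of 15, TMM, robust quasi-likelihood test, Benjamini-Hochberg adjustment over all genes tested, threshold 0.05). Organ contrasts and differences of effects came from 1 fit of 22 libraries. There were 11 contrasts. DESeq2 1.42.0, other filters and scalings, a replicate block and left-out replicates were the alternatives. The code was tested on simulated data. Exact intervals cover counting error only. Sequences and names came from the TAIR10.1 assembly of RefSeq, matched by locus code (Biopython 1.88); the counts carry no coordinates. Named were called members, members of the role lists, the highest per kb and up to 3 genes per other list. The members and lists were chosen with earlier results of these data known.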

Additional observations from a re-analysis of the deposited data

Results flagged for a closer look

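Groups of 4 libraries were tested for a library far from the rest of its group, so pxy roots and WT shoots (n = 3) were not. Of 48 such tests 4 were positive, and chance gives about 1 in 20. The summed level of the defence peroxidases was lowest in pxy shoot replicate 4, at 499 CPM. The seed coat peroxidase PER36 was highest in pxy shoot replicate 1, at 0.163 CPM. This was 1 count against 0 in each other pxy shoot, so that test had to be positive and shows nothing about the library. The summed root hair markers were highest in WT root replicate 2, at 1024 CPM, and the summed photosynthetic markers were highest in 41-OX root replicate 4, at 2726 CPM, both after TMM scaling. In the untested WT shoots the family's sum was lowest in replicate 3, at 1623 CPM against 1971 and 2009.5 CPM.

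The effect of 41-OX, tested as its value in roots minus its value in shoots, differed for 37 members. It was higher in roots for AT2G34060 (0.97 on the log2 scale), AT3G28200 (0.60) and PRXR1 (0.37). Among those lower in roots, the difference was -4.62 for RHS18, -3.66 for AT1G30870, -3.59 for AT1G34510, -3.36 for AT3G49960, -3.34 for RHS19, -2.97 for AT5G19890, -2.95 for AT4G26010, -2.86 for AT1G05240 and -2.39 for AT1G05250. The fitted difference of AT1G49570, -4.62, depends on 3 counts in WT shoots and is no measure of size. AT5G19890 passed the filter of this fit only through the 41-OX shoots and so had to differ, and its value is given as a description.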

How the results depend on the processing

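Counts of called members kept within 1.5 times under DESeq2 size factors, the DESeq2 Wald test, both filters, the replicate block and the fit of all 22 libraries, and with 41-OX and WT shoots fitted without pxy, chosen after seeing the data (39 members, 35 higher and 4 lower). With both left-out libraries put back, 0 members passed for 41-OX against WT in roots and 0 against pxy, and 10 for the difference of the 41-OX effect between organs. AT3G28200 then had a log2 fold change of -0.27 for 41-OX against pxy in roots (adjusted p = 0.676); the cause was not tested. Of 4089 gene values under alternatives, 3913 kept direction and call, 175 lost the call and 1 reversed.

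Leaving out 1 replicate at a time gave 8 to 11 called members for 41-OX against WT in roots and 8 to 11 against pxy, 34 to 38 in shoots against either, 0 to 0 for pxy against WT in roots and 1 to 2 in shoots (2 without WT shoot replicate 1). It gave 46 to 49, 47 to 49 and 43 to 47 for root against shoot in WT, pxy and 41-OX, 29 (without WT shoot replicate 3) to 40 for the difference of the 41-OX effect and 0 to 0 for that of pxy.

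Replicate numbers did not pair the libraries: over 20 pairs of the same number and organ the median correlation of deviations was -0.04, with 3 over 0.1, and 4 of 22 libraries correlated best with their own number. With the replicate block 9 members were called for 41-OX against WT in roots, 36 in shoots and 35 for the difference of effects.

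Over all genes, 8 passed for pxy against WT in roots, 89 with DESeq2, 14 with 22 libraries, 3 with the block and 1 with libraries put back. For 41-OX against WT in roots 1332 passed and 137 with libraries put back. For 41-OX against pxy in roots 1983 passed, 1136 with the block, 3276 with 22 libraries and 230 with libraries put back. For pxy against WT in shoots 343 passed and 143 with 22 libraries. For the difference of the 41-OX effect 3418 passed and 402 with libraries put back, and for that of pxy 2 passed, 47 with DESeq2 and 1 with libraries put back. At low counts, as for AT1G49570, depth limits the size of a change.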
